A study of Mus musculus with 12 samples.

Results

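The livers of high-fat-diet-fed mice made up 6 of the 12 RNA sequencing libraries of the series, and they were chosen by their sample labels. The other 6 libraries were of bone-marrow-derived macrophages treated with TSH and were used only to check the tissue. The 3 livers labelled Tshr f/f came from mice that carry Tshr, the gene of the thyrotropin receptor, with its last exon between loxP sites and no Cre. The 3 livers labelled Tshr MKO came from mice with the same floxed gene and Lyz2-Cre, a recombinase made from the Lyz2 gene in myeloid cells such as macrophages and neutrophils, so that hepatocytes were not the target of the deletion. All were male mice of the C57BL/6N background and littermates were used as controls. Mice of both groups started the high-fat diet at an age of 6 weeks and stayed on it for 9 weeks, were then fasted for 8 h and received insulin at 1.5 U/kg for 5 min before the liver was taken. All values below therefore belong to fasted, insulin-injected livers, and no liver on normal chow or without insulin was analysed here. The question was which genes and liver functions differ when myeloid cells lack the receptor.

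The liver is made mostly of hepatocytes, which store and release glucose, build and secrete lipoproteins and plasma proteins, clear drugs and burn fatty acids in their mitochondria. Resident macrophages (Kupffer cells) and recruited monocytes can act on hepatocytes through cytokines, which switch on acute-phase genes and impair insulin signaling. Insulin acts within minutes through kinases, whereas most liver transcripts follow fasting, glucocorticoids, the clock and inflammation over hours. Immediate-early genes are the exception, since they can be transcribed within minutes of a stimulus.

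The directions below follow the sample labels. The study elsewhere lists counts of these libraries under the opposite group names, and the deleted gene could not check the labels. Tshr had 0 counts in every liver, where 3 counts would be 0.0742 to 0.104 CPM, the count of a gene scaled to the size of its library. That limit covers only counting error. A count over the whole gene also need not fall when the last exon is lost. Lyz2 had 818, 2173 and 1348 counts in the f/f livers and 56, 4473 and 1236 in the MKO livers, so MKO replicate 1 had far fewer than the other 5 livers (log2 fold change 0.20 ± 1.10, SE, adjusted p = 0.974). The leukocyte gene Ptprc, with 652 counts in that library, lay within the range of the f/f livers, at 236 to 1856. Total counts ran from 28962878 to 40420513 per liver. The 12 hepatocyte markers summed to 148757 to 173665 CPM in the livers and 23.7 to 357 CPM in the macrophages on a common scale, which matched the tissue labels. Replicate 1 of the f/f group stood apart: its normalization factor was 0.891 against 0.976 to 1.05 in the other livers.

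No gene passed the adjusted threshold. Of 15062 genes tested with edgeR's quasi-likelihood test, 0 (0%) had an adjusted p under 0.05, whether higher or lower in MKO livers. At an unadjusted p under 0.05 there were 1574 genes, 10.5% of those tested, of which 794 (5.27%) were higher and 780 (5.18%) lower in MKO livers. A difference of at least 2-fold was also met by 233 genes (1.55%), with 104 (0.69%) higher and 129 (0.856%) lower. In 2612 genes (17.3%) the groups did not overlap, with 1446 (9.6%) higher and 1166 (7.74%) lower in MKO livers. DESeq2 called 228 genes at an adjusted p under 0.05, of which 126 were lower and the others higher. All 228 were among the genes with an unadjusted p under 0.05 in edgeR. In counts simulated for each gene on its own, with the spread fitted to it, 60 of the 217 calls of DESeq2 were genes that had not been changed. The same was true of 6 of the 142 calls of edgeR. The simulation had no shifts shared by many genes of a liver, so these numbers need not hold for the real livers. The biological coefficient of variation, the relative spread between mice, was 0.27. The words higher and lower below are therefore descriptions of 3 livers against 3, and adjusted p-values are those of edgeR over all 15062 genes. Counts of list members below are to be read beside these shares, 10.5% at an unadjusted p under 0.05 and 17.3% without overlap.

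The genes described first are the 15 higher and the 15 lower with the lowest p among genes whose groups did not overlap and differed by at least 1.5-fold. Their adjusted p-values lay between 0.0634 and 0.314. As their groups did not overlap, their direction was all but fixed in advance for any subset of these livers. It held for all 30 with any liver left out. It also held within the livers whose sample ID starts with A (1 MKO, 2 f/f) and within those starting with B (2 MKO, 1 f/f). These results are therefore no separate evidence. DESeq2, run on the same counts, called all 30. The lower genes included the phosphatase gene Dusp1, the kinase gene Sik1 and the transcription factor gene Egr1. The higher genes included the enzyme genes Tymp, Cyp4a12b and Cyp2c40.

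**Figure D1:**
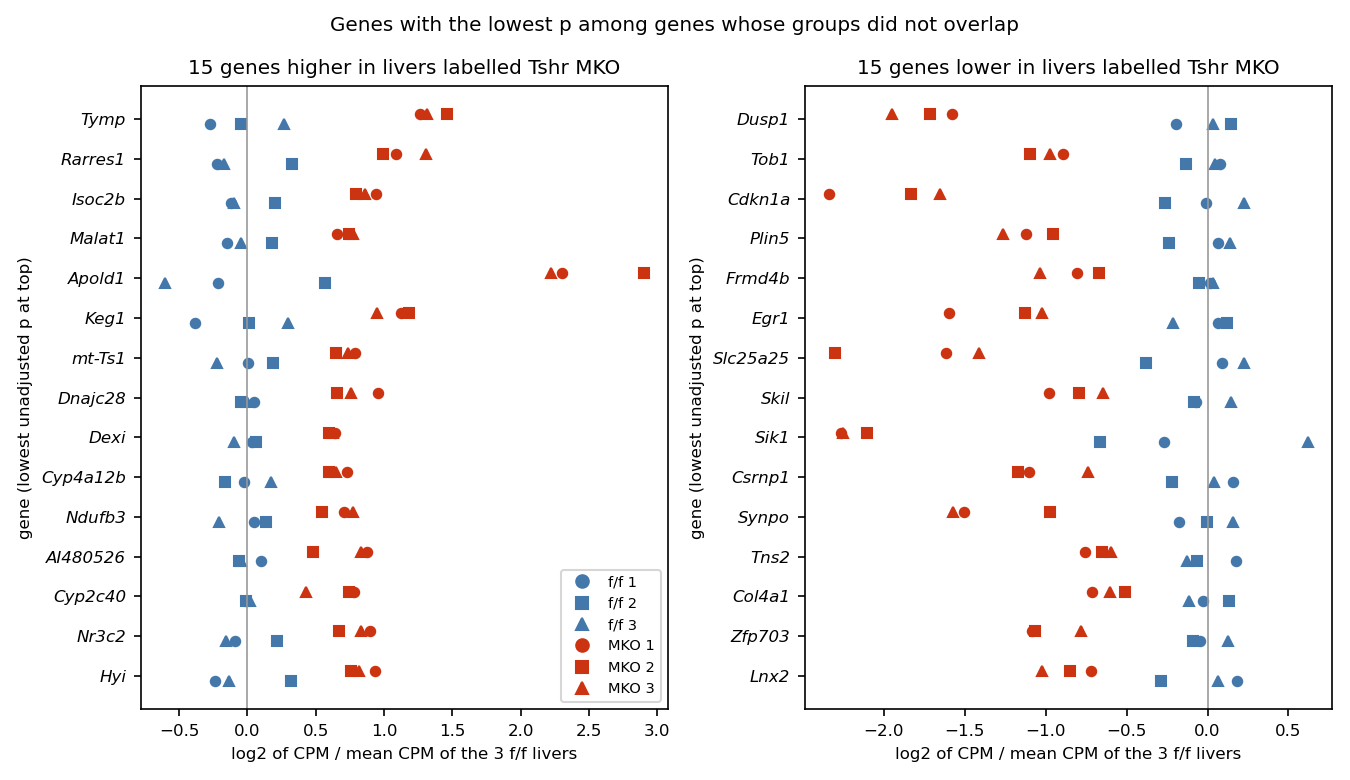
Each row is a gene and each point is a liver, placed by the log2 of its CPM over the mean CPM of the 3 f/f livers. The MKO livers (red) lie to the right of all f/f livers (blue) for the 15 higher genes and to the left for the 15 lower genes. Dusp1, Cdkn1a, Slc25a25 and Sik1 lie furthest to the left and Apold1 furthest to the right.

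Dusp1, the phosphatase that switches off the MAP kinases p38 and JNK, had the lowest p of all genes (chromosome 17, 26505590 to 26562128, minus strand, GRCm38). It had 142, 179 and 166 CPM in the f/f livers and 54.3, 49.3 and 41.9 CPM in the MKO livers. The lowest f/f liver was thus far above the highest MKO liver, and the log2 fold change was -1.74 ± 0.14 (SE, adjusted p = 0.0634). Without a filter on low counts its adjusted p was 0.029, and without f/f replicate 2 it also fell under 0.05. Sik1, a kinase induced by cAMP that restrains CREB-driven transcription, had 45.4, 34.6 and 84.2 CPM in the f/f livers against 11.4, 12.7 and 11.5 in the MKO livers (log2 fold change -2.21 ± 0.33, adjusted p = 0.303). The 3 MKO livers were nearly equal, while the f/f livers differed widely among themselves. Csrnp1, a nuclear protein of the immediate-early class, was at 19.8 to 25.8 CPM in f/f and 10.2 to 13.8 CPM in MKO livers, a difference of -0.99 ± 0.16.

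Most other immediate-early genes followed the same direction. Of the 36 tested of 39 listed, 27 were lower and 9 higher in MKO livers, 11 of them lower and 0 higher at an unadjusted p under 0.05, and their median log2 fold change was -0.33 against -0.01 over all genes tested. In 10 of them the groups did not overlap with MKO lower, and in 1 with MKO higher. Nr4a1, an orphan nuclear receptor induced by cAMP and fasting signals, had 30.6, 28.3 and 48.5 CPM in f/f and 5.17, 14.0 and 3.61 CPM in MKO livers (-2.23 ± 0.52, adjusted p = 0.334). The AP-1 gene Fos was at 9.39 to 14.0 CPM in f/f and 3.47 to 9.24 CPM in MKO livers (-1.08 ± 0.41, adjusted p = 0.437). Gadd45g, a growth arrest gene, was at 63.6 to 78.8 CPM in f/f and 17.2 to 43.4 CPM in MKO livers (-1.15 ± 0.32). Smaller differences were found for Ier2 (-0.55 ± 0.12), for Zfp36, which destabilizes cytokine mRNAs (-0.33 ± 0.10), and for Myc (-0.86 ± 0.31). Jun (-0.42 ± 0.22) and Atf3 (-0.20 ± 0.51) overlapped between the groups, and Egr2, Egr3 and Arc were too low to be tested. Relatives of Fos and Nr4a1 were among the 9 higher genes. These were Fosb (1.215 ± 0.719), Nr4a2 (0.826 ± 0.530) and Nr4a3 (0.757 ± 0.955), all with overlap. The gene higher without overlap was Ppp1r15a (0.198 ± 0.090). The list median stayed between -0.51 and -0.21 with each liver left out, and was -0.28 within sample IDs starting with A and -0.35 within those starting with B.

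To show what lies in front of such genes, the 250 bases before the transcription start (RefSeq, GRCm38.p6) were searched on both strands for the cAMP response element TGACGTCA, the E-box CACGTG and the EGR site GCGGGGGCG. None of these strings overlaps another in the stretches printed. Of the 36 immediate-early genes tested, 30 had an entry, and 5 of them (16.7%) held the cAMP response element, 7 (23.3%) the E-box and 7 (23.3%) the EGR site. Over all 27025 genes with an entry the shares were 1.77%, 6.86% and 2.93%. The immediate-early holders went in both directions. With the cAMP response element, Ppp1r15a was higher without overlap (0.198 ± 0.090), and Dusp1, Dusp8, Btg2 and Maff were lower. With the EGR site, Fosb (1.215 ± 0.719), Klf2 (0.284 ± 0.349) and Klf4 (0.274 ± 0.568) were higher, and Fosl2, Dusp2, Nr4a1 and Zfp36 lower. The directions of Maff, Dusp2 and Klf4 turned when single livers were left out. Among the 15 lower genes 10 had an entry and 2 (Dusp1 and Slc25a25) held the cAMP response element, and among the 15 higher genes 11 had an entry and 0 held any of the 3. Printed are the genes that were lower without overlap at an unadjusted p under 0.05 and held the cAMP response element or the EGR site, each 5′ to 3′ on its own strand up to the base before the start, with the matches in capitals. Dusp1 lies at chr17:26508473-26508722 (minus), Slc25a25 at chr2:32424067-32424316 (minus), Nr4a1 at chr15:101266596-101266845 (plus) and Zfp36 at chr7:28379229-28379478 (minus). Each of these stretches, and the start after it, lies inside the span of its gene in GENCODE. A match describes letters only and is not evidence of binding.
Dusp1: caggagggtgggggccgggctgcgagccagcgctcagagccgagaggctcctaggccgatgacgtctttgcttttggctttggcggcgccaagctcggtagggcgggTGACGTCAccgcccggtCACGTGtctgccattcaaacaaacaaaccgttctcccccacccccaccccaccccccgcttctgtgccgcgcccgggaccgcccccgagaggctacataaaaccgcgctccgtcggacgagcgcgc
Slc25a25: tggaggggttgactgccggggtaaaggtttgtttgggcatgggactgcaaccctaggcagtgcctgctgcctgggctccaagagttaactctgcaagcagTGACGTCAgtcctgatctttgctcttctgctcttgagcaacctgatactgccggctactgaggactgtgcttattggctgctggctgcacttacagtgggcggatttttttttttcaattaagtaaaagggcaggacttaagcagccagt
Nr4a1: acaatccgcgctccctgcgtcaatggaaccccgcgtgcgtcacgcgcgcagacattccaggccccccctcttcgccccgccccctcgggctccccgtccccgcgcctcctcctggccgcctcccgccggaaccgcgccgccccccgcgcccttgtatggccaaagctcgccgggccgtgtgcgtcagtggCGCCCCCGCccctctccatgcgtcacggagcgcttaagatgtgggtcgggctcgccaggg
Zfp36: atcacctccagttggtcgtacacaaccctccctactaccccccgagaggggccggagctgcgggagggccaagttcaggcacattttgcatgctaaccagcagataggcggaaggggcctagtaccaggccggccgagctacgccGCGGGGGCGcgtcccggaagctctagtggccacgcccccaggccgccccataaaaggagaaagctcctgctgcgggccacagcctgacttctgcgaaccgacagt

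Slc25a25, which carries ATP and phosphate across the inner mitochondrial membrane, was the most abundant of the lower genes. It had 530, 381 and 580 CPM in the f/f livers and 163, 101 and 187 CPM in the MKO livers, with no overlap (-1.73 ± 0.27, adjusted p = 0.303). It is not among the immediate-early genes listed. The stretch printed above, before a start inside the gene as for the other genes printed, holds the cAMP response element also found for Dusp1. Bases shortly after that start were not found in a GENCODE transcript of Slc25a25, while those of the other genes printed were.

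Cdkn1a and Tob1 had the lowest p of these 15 lower genes after Dusp1. Cdkn1a, which encodes the cell cycle inhibitor p21, had 93.6, 78.4 and 110 CPM in the f/f livers and 18.6, 26.4 and 29.9 CPM in the MKO livers (-1.92 ± 0.21, adjusted p = 0.151). Tob1, an antiproliferative protein that recruits mRNA deadenylases, had 174, 151 and 171 CPM against 89.2, 77.4 and 84.2 CPM (-0.99 ± 0.10, adjusted p = 0.151). In both genes every MKO liver was below every f/f liver by a wide margin.

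The whole list of p53 targets, which holds Cdkn1a, pointed the same way. All 16 were lower in MKO livers, 4 of them at an unadjusted p under 0.05, with a median of -0.40 that stayed between -0.55 and -0.32 with each liver left out. The groups did not overlap in 6 of the 16. Besides Cdkn1a the lowest p-values were those of Gdf15, a secreted stress hormone of the TGF-beta family (8.73 to 12.99 CPM in f/f and 3.19 to 5.10 CPM in MKO livers, -1.31 ± 0.24), and of the apoptosis gene Bbc3 (-0.70 ± 0.27). Mdm2, the ligase that degrades p53, was at -0.29 ± 0.16 and overlapped. Cell cycle genes did not move with it: 11 of 26 were higher and 15 lower, with 1 lower at an unadjusted p under 0.05 and a median of -0.07. Members of the list are also targets of glucocorticoids, FoxO and the stress response.

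Genes of insulin signaling and of the FoxO1 program, which fasting switches on and insulin off, were mostly lower. Of 28 tested, 21 were lower and 7 higher, with 5 lower and 0 higher at an unadjusted p under 0.05 and a median of -0.17. The higher members included Bcl6 (1.255 ± 0.598) and Pik3r1 (0.479 ± 0.217), both with overlap. The signaling genes Insr (-0.104 ± 0.099), Akt1 (-0.065 ± 0.080), Akt2 (-0.017 ± 0.132) and Foxo1 (-0.102 ± 0.118) also overlapped. Igfbp1, a secreted IGF-binding protein that insulin represses, had 258, 255 and 252 CPM in the f/f livers and 119, 42.1 and 97.8 CPM in the MKO livers (-1.56 ± 0.36, adjusted p = 0.334). The f/f livers were nearly equal and all far above the MKO livers. Sgk1, a kinase close to AKT, was at 31.6 to 51.5 CPM in f/f and 15.6 to 21.5 CPM in MKO livers (-1.04 ± 0.22, adjusted p = 0.315).

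The pseudokinase Trib1 (-0.56 ± 0.13), the pyruvate dehydrogenase kinase Pdk4 (-0.87 ± 0.24) and the kinase Gsk3b (-0.26 ± 0.10) did not overlap between the groups either. The enzymes of glucose output gave less clear values. Pck1 was at 4288 to 5029 CPM in f/f and 2705 to 4184 CPM in MKO livers (-0.39 ± 0.18, adjusted p = 0.507). G6pc had 265, 371 and 369 CPM in f/f but 378, 66.6 and 111 CPM in MKO livers, so MKO replicate 1 was above all f/f livers (-0.86 ± 0.61). Over the 16 genes tested of gluconeogenesis and glycogen the median was -0.03, with 7 higher and 9 lower. Ugp2, which makes the UDP-glucose for glycogen, was higher (133.3 to 190 CPM in f/f, 219 to 269 CPM in MKO livers, 0.64 ± 0.17, adjusted p = 0.334).

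Glycolysis and fructose use leaned upward. Of 17 genes 11 were higher and 6 lower, 3 higher and 0 lower at an unadjusted p under 0.05, with a median of 0.18 (0.12 without MKO replicate 1). Khk, the first enzyme of fructose breakdown, had 136, 182 and 136 CPM in f/f and 288, 226 and 268 CPM in MKO livers with no overlap (0.78 ± 0.16, adjusted p = 0.315). Pfkfb3, which makes the activator of phosphofructokinase, was at 23.5 to 60.7 CPM in f/f and 67.5 to 110 CPM in MKO livers (0.98 ± 0.36).

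Glucocorticoid receptor targets were lower in 15 of 17 cases, with 5 lower and 1 higher at an unadjusted p under 0.05 and a median of -0.50. Dusp1 and Sgk1 belong to this list too. Fkbp5, a chaperone of the receptor that it induces itself, was at 138 to 253 CPM in f/f and 76.8 to 122 CPM in MKO livers (-0.77 ± 0.29). Klf9 (-0.50 ± 0.14) and the tyrosine aminotransferase Tat, at 3043 to 4112 CPM in f/f and 2048 to 3026 CPM in MKO livers (-0.58 ± 0.20), also did not overlap. Hsd11b1, which regenerates active glucocorticoid, was the member higher at an unadjusted p under 0.05 (0.42 ± 0.16) and overlapped. The median was -0.18 without f/f replicate 1, and -0.07 within sample IDs starting with A against -0.46 within those starting with B.

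**Figure D2:**
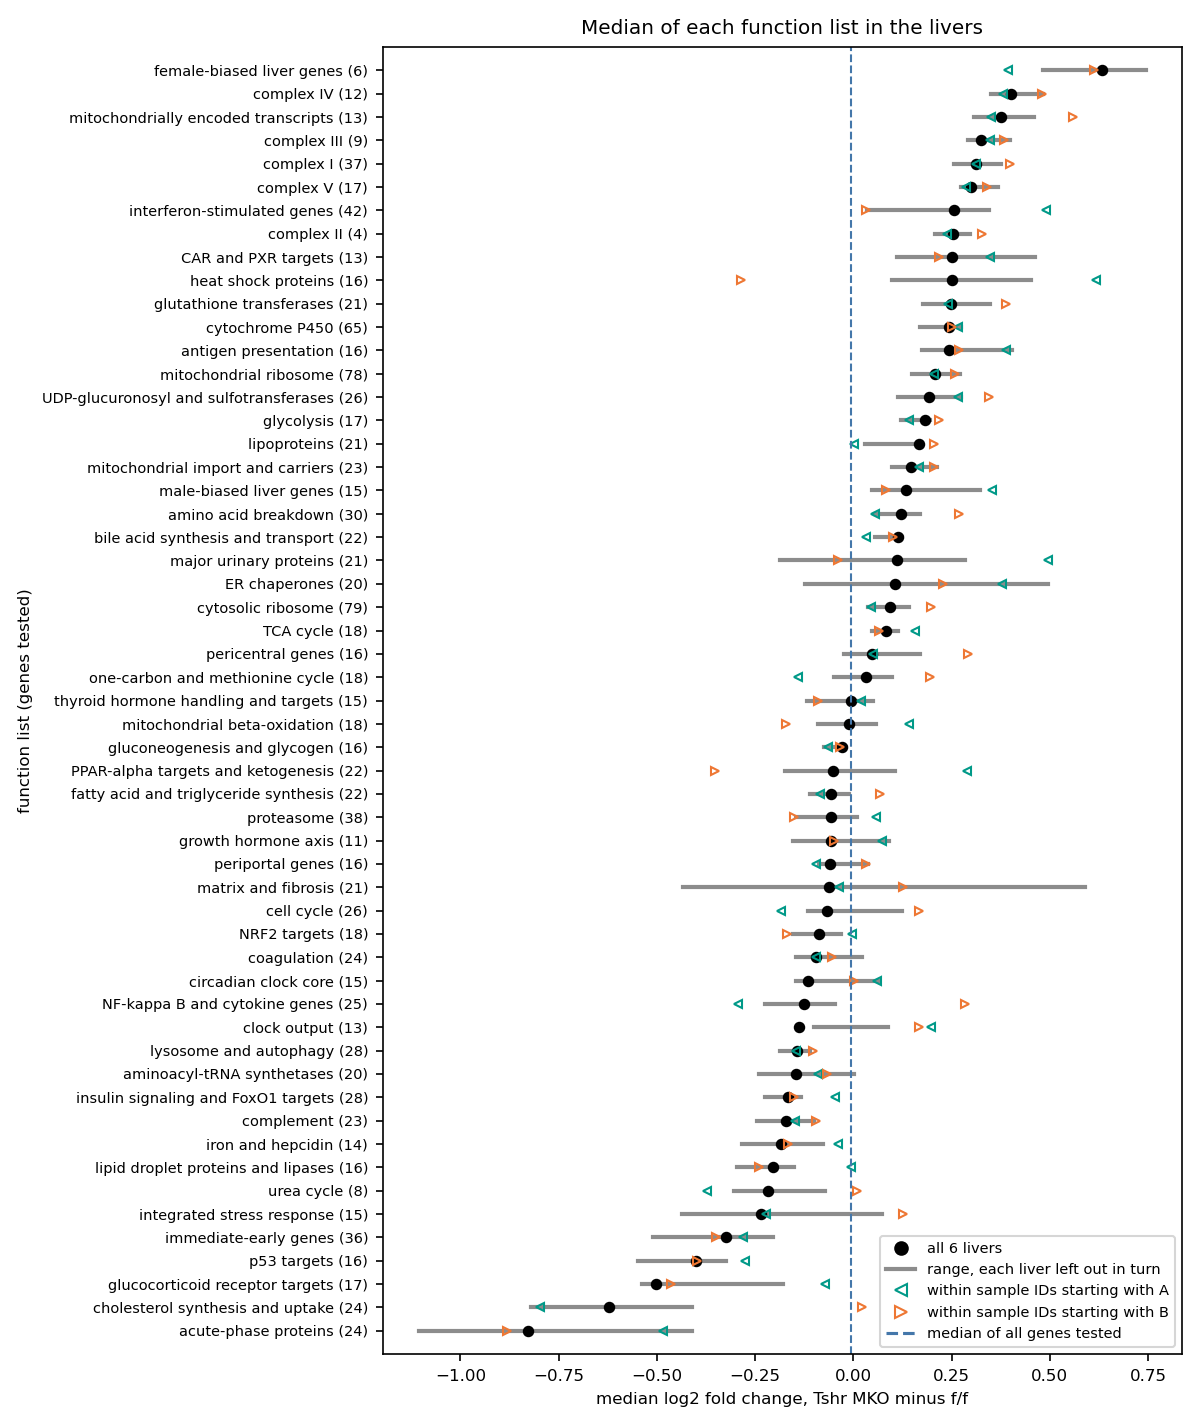
Each row is a function list with the number of genes tested. The black point is the median log2 fold change (MKO minus f/f) over the 6 livers, the grey bar the range with each liver left out in turn, and the triangles the medians within the livers whose sample ID starts with A or B. Acute-phase, cholesterol, glucocorticoid, p53 and immediate-early lists lie at the low end. The lists of mitochondrial complexes lie near the high end with narrow bars, while cholesterol and heat shock genes differ between the sample ID letters.

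Proteins of the lipid droplet were led by Plin5, the perilipin that ties droplets to mitochondria. It had 131, 106 and 138 CPM in the f/f livers and 57.2, 64.3 and 52.0 CPM in the MKO livers, with no overlap (-1.11 ± 0.13, adjusted p = 0.206). Of 16 genes tested of this list 11 were lower and 5 higher, 4 lower and 1 higher at an unadjusted p under 0.05, with a median of -0.21. The triglyceride lipase Pnpla2 (94.2 to 115 CPM in f/f, 76.9 to 81.4 CPM in MKO livers, -0.40 ± 0.10) and the hormone-sensitive lipase Lipe (-0.38 ± 0.14) did not overlap. G0s2, the inhibitor of Pnpla2, had 131, 40.1 and 109 CPM against 37.2, 50.8 and 40.7 CPM, so f/f replicate 2 lay within the MKO range (-1.12 ± 0.41). Plin2, the main droplet coat of hepatocytes, was at 377 to 890 CPM in f/f and 370 to 665 CPM in MKO livers and overlapped (-0.46 ± 0.36). Fitm1, which helps droplets to form, was higher (0.87 ± 0.29). The triglyceride content of the livers was not analysed here.

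Cholesterol synthesis and uptake, the program that SREBP2 drives, was lower in MKO livers for 21 of 24 genes, with 9 lower and 0 higher at an unadjusted p under 0.05 and a median of -0.62. Hsd17b7, an enzyme of the late pathway, had 106, 65.3 and 69.3 CPM in f/f and 32.0, 46.2 and 42.1 CPM in MKO livers (-1.001 ± 0.223, adjusted p = 0.318). Srebf2, the gene of SREBP2, was at 61.2 to 90.5 CPM against 44.6 to 56.8 CPM (-0.61 ± 0.16, adjusted p = 0.334). Dhcr7, a sterol reductase of the last steps, did not overlap either (36.4 to 63.9 CPM against 28.4 to 34.1 CPM, -0.81 ± 0.22).

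The median of the cholesterol list was -0.41 without f/f replicate 1 and -0.82 without f/f replicate 3. It was -0.80 within sample IDs starting with A and 0.02 within those starting with B, where f/f replicate 3 is the only f/f liver, so the difference did not hold within both letters.

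The rest of lipid metabolism moved less as a whole. Of 22 genes of fatty acid and triglyceride synthesis 9 were higher and 13 lower with a median of -0.06. Fasn, the fatty acid synthase, was at 134 to 237 CPM in f/f and 112 to 153 CPM in MKO livers (-0.57 ± 0.22), whereas the desaturase Scd1 had 3541, 5671 and 4452 CPM against 11629, 5708 and 5410 CPM (0.74 ± 0.34). Among 18 genes of mitochondrial beta-oxidation 9 were higher and 9 lower. Cpt1a, which controls fatty acid entry into mitochondria, was lower without overlap (696 to 1018 CPM against 567 to 637 CPM, -0.52 ± 0.16, adjusted p = 0.37), while the isomerase Eci1 was higher (0.37 ± 0.10).

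PPAR-alpha targets and ketogenesis had a median of -0.05 over 22 genes. Fgf21, the fasting hormone of the liver, had 25.0, 4.80 and 25.8 CPM in f/f and 3.88, 4.81 and 3.36 CPM in MKO livers (-2.20 ± 0.60, adjusted p = 0.346), so that f/f replicate 2 stood with the MKO livers and the other 2 f/f livers far above. Fabp1, the fatty acid binding protein of hepatocytes, was higher without overlap (2649 to 2910 CPM against 3450 to 4360 CPM, 0.47 ± 0.14).

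Lipoprotein genes gave both directions. Of 21 tested 11 were higher and 10 lower, 4 higher and 0 lower at an unadjusted p under 0.05, with a median of 0.17. The median was 0.03 without f/f replicate 3 and 0.00 within sample IDs starting with A. Apoc3, which slows triglyceride clearance, was at 538 to 631 CPM in f/f and 751 to 867 CPM in MKO livers (0.44 ± 0.12, adjusted p = 0.334), and Apoc1 (0.46 ± 0.14), Apoa2 (0.43 ± 0.15) and the hepatic lipase Lipc (0.31 ± 0.12) did not overlap either. Bile acid genes had a median of 0.11 over 22 genes (0.05 without MKO replicate 2). Cyp7a1, the rate-limiting enzyme of bile acid synthesis, had 71.6, 91.4 and 117 CPM against 253, 161 and 39.6 CPM and overlapped widely (0.69 ± 0.60), while the racemase Amacr was higher without overlap (114.4 to 122.5 CPM against 149 to 152 CPM, 0.34 ± 0.08).

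Acute-phase proteins, which hepatocytes secrete under IL-6 and IL-1, were lower in 23 of 24 cases, with 9 lower and 0 higher at an unadjusted p under 0.05. Their median of -0.83 was the lowest of the function lists. The groups overlapped in all 24. Saa2, a serum amyloid A, had 8956, 101.8 and 1921 CPM in the f/f livers and 35.8, 68.3 and 322 CPM in the MKO livers (-4.69 ± 1.64, adjusted p = 0.42). Orm2, an acid glycoprotein, had 1259, 25.6 and 165 CPM against 27.5, 13.5 and 29.8 CPM (-4.36 ± 1.35, adjusted p = 0.375). In both, f/f replicate 1 was highest by far, f/f replicate 3 came next and f/f replicate 2 lay within the MKO range. Saa and Orm genes have near-identical copies, so single values are uncertain.

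The same order held for haptoglobin, Hp (19516, 5679 and 8731 CPM against 4420, 4858 and 5805 CPM, -1.17 ± 0.44), and for hemopexin, Hpx (14611, 4075 and 7216 CPM against 3427, 3708 and 4116 CPM, -1.20 ± 0.44). Without f/f replicate 1 the median of the list was -0.41, and without f/f replicate 2 it was -1.11. In the plot of lipid and acute-phase genes f/f replicate 1 is the highest liver for most members of the list. The 12 neutrophil markers tested were also highest in f/f replicate 1, where they summed to 118 CPM against 17.6 to 49.8 CPM in the other livers. Their part in the result was not tested.

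**Figure D3:**
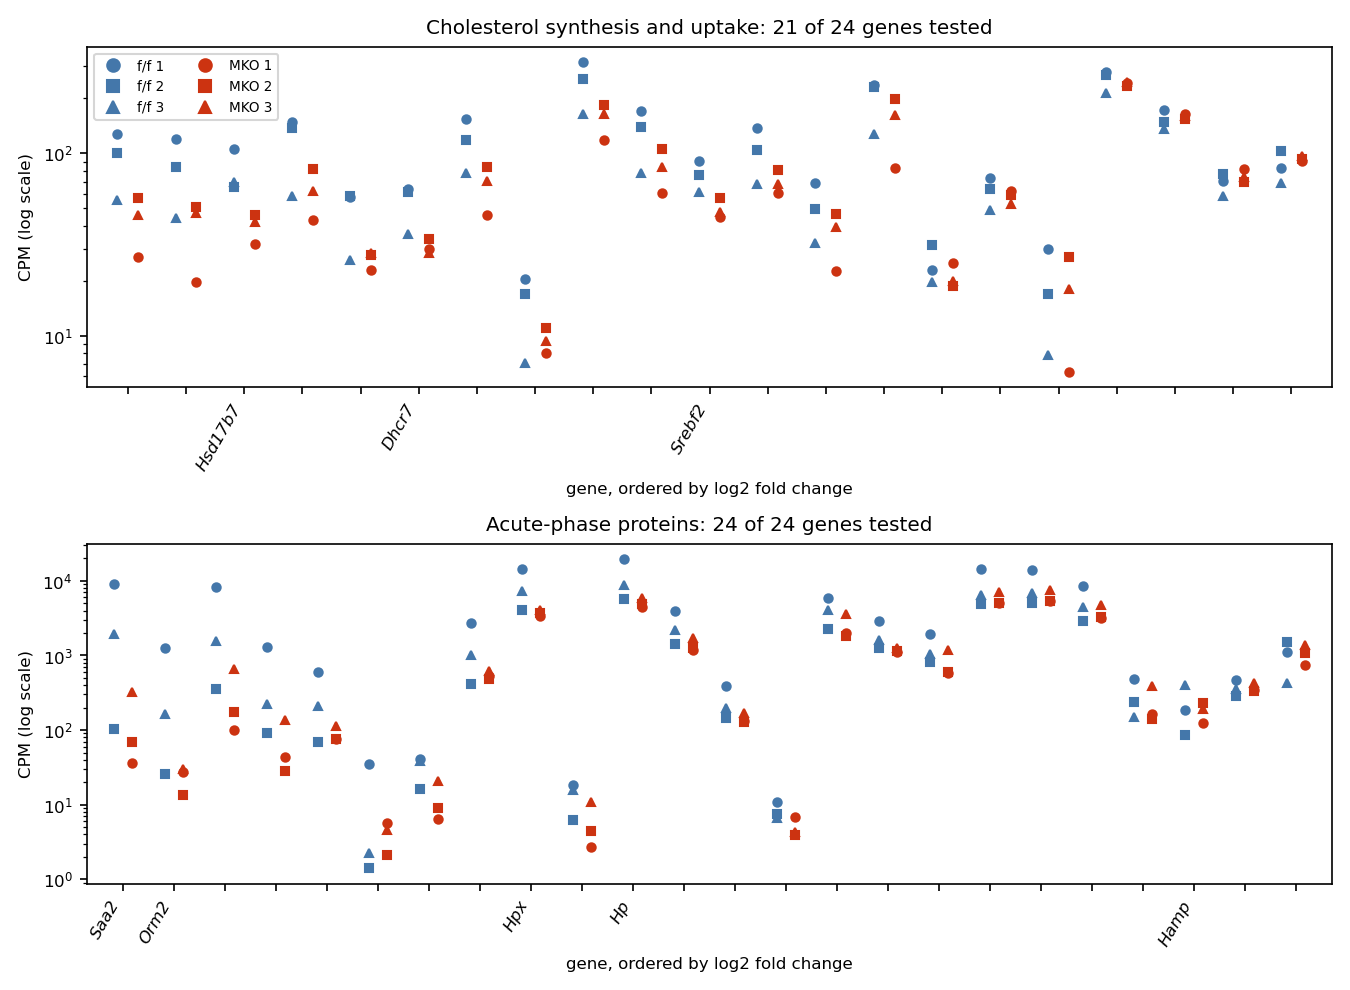
CPM on a log axis for genes of the lists of cholesterol synthesis and uptake and of acute-phase proteins, with each point a liver (blue f/f, red MKO); genes described in the text carry their names. In the upper panel f/f replicates 1 and 2 are mostly above the MKO livers and f/f replicate 3 is near them. In the lower panel f/f replicate 1 is above all others for Saa2 and Orm2.

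Complement genes were lower in 18 of 23 cases with a median of -0.17 (-0.10 without f/f replicate 1). There were 2 lower and 1 higher at an unadjusted p under 0.05 (13% of the list against 10.5% of all genes). C3, the central component, had 20346, 8300 and 13649 CPM in f/f and 7540, 6587 and 9134 CPM in MKO livers (-0.86 ± 0.32, adjusted p = 0.436). C6, of the membrane attack complex, was lower without overlap (369 to 487 CPM against 175 to 316 CPM, -0.79 ± 0.23), and C8g, of the same complex, was higher (140 to 163 CPM against 212 to 233 CPM, 0.55 ± 0.10, adjusted p = 0.303). The coagulation list had a median of -0.09 over 24 genes (0.02 without f/f replicate 1). Its lowest p was that of tissue factor, F3, at 2.61 to 3.05 CPM in f/f and 0.991 to 1.15 CPM in MKO livers (-1.33 ± 0.25, adjusted p = 0.314).

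Interferon-stimulated and antigen presentation genes had medians above 0, but their share at an unadjusted p under 0.05 was near that of all genes. Of 42 interferon-stimulated genes 33 were higher, and 2 were higher and 1 lower at that threshold (7.14% against 10.5% over all genes), with a median of 0.26. That median was 0.03 without f/f replicate 1, 0.49 within sample IDs starting with A and 0.03 within those starting with B. Ifi47, an interferon-inducible GTPase, was at 9.95 to 12.1 CPM in f/f and 15.7 to 18.9 CPM in MKO livers (0.60 ± 0.13, adjusted p = 0.315), and the chemokine Cxcl10 was also higher without overlap (1.10 ± 0.40). All 16 antigen presentation genes were higher, 2 at that threshold (12.5% of the list), with a median of 0.24 that stayed between 0.17 and 0.40. The immunoproteasome subunits Psmb10 (0.55 ± 0.15), Psmb9 (0.67 ± 0.24) and Psmb8 (0.34 ± 0.12) did not overlap, while the proteasome as a whole had a median of -0.06 over 38 genes (0.01 without f/f replicate 1). NF-kappa B and cytokine genes were lower in 16 of 25 cases with a median of -0.13 (-0.05 without f/f replicate 2), and Il1a, the cytokine with the lowest p among them, was higher at 1.18 to 2.56 CPM in f/f and 2.66 to 4.69 CPM in MKO livers (1.08 ± 0.37, adjusted p = 0.403).

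Mitochondrial genes differed in the most even way. The subunits of respiratory chain complexes I to V encoded in the nucleus were higher in MKO livers for 78 of 79 genes tested, with a median of 0.34. Complex I (NADH dehydrogenase) had 37 of 37 genes higher, 27 of them at an unadjusted p under 0.05, with a median of 0.31. Complex IV (cytochrome c oxidase) had 11 of 12 higher and 10 past that threshold, with a median of 0.40, and complexes II, III and V had 4 of 4, 9 of 9 and 17 of 17 higher with medians of 0.25, 0.33 and 0.30.

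Ndufb3, the complex I subunit with a place among the 15 higher genes, had 26.9, 28.6 and 22.6 CPM in f/f and 42.6, 38.0 and 44.4 CPM in MKO livers (0.68 ± 0.12, adjusted p = 0.303). Transcripts of the mitochondrial genome itself were higher for 11 of 13 genes, 8 at an unadjusted p under 0.05, with a median of 0.38. Among them mt-Co1, of complex IV, had 16316, 17646 and 14407 CPM in f/f and 22791, 22903 and 23011 CPM in MKO livers (0.51 ± 0.14, adjusted p = 0.334). All mitochondrially encoded RNAs made up 5.55% to 6.80% of counts in f/f and 7.72% to 8.15% in MKO livers, with no overlap.

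The mitochondrial ribosome was higher for 71 of 78 genes, with 21 higher and 0 lower at an unadjusted p under 0.05 and a median of 0.21, led by Mrps16 (8.08 to 9.68 CPM against 13.7 to 14.4 CPM, 0.62 ± 0.12, adjusted p = 0.315). Mitochondrial import and carriers had 20 of 23 higher with a median of 0.15. The TCA cycle, the pathway that feeds the chain, had 14 of 18 higher with a smaller median of 0.08 (0.05 without f/f replicate 2). Its Sdhb, also of complex II, was higher (0.47 ± 0.10), while Ogdh was lower without overlap (224 to 257 CPM against 198 to 210 CPM, -0.23 ± 0.10). These medians kept their sign with each liver left out and within both sample ID letters.

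Median fold changes were lower in longer length classes. Among protein-coding genes outside the mitochondrial and cytosolic ribosome lists, the median log2 fold change was 0.16 for 230 genes with up to 1000 bases of exon, 0.08 for 1326 genes of 1000 to 2000 bases, 0.00 for 3942 genes of 2000 to 4000 bases and -0.06 for 4083 genes over 6000 bases. The same order was found within sample IDs starting with A (0.16 to -0.03) and with B (0.25 to -0.07). The median exon length was 1495 bases for complex I and 1172 bases for complex IV, against 4414 bases over all protein-coding genes tested. The 19 subunits of complexes I to V with up to 1000 bases had a median of 0.39, and the 8 with 4000 to 6000 bases one of 0.28. In each length class the median of the subunits was above that of the other genes. The part of length in the differences of short genes, the apolipoproteins and ribosomal proteins included, was not tested.

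**Figure D4:**
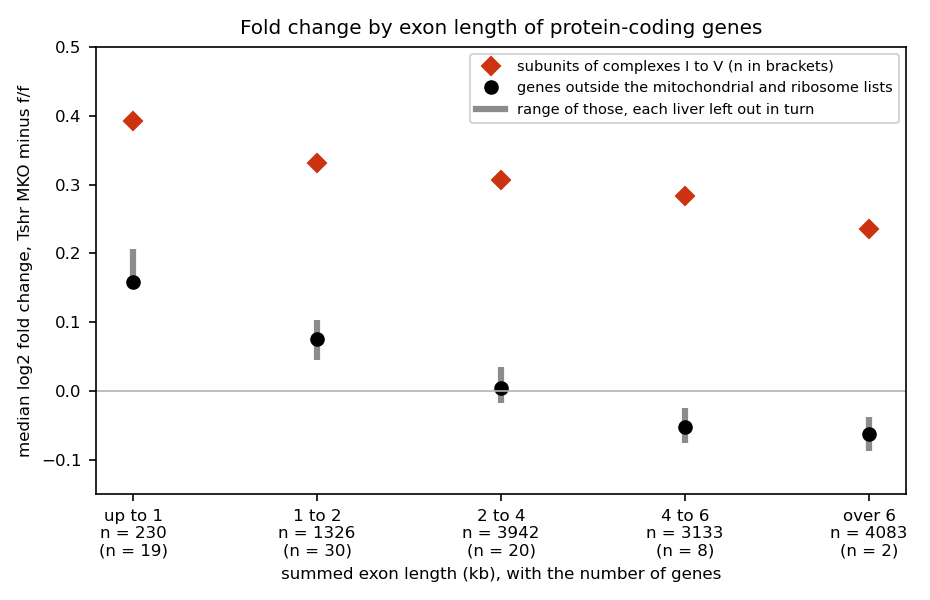
Median log2 fold change (MKO minus f/f) of protein-coding genes in 5 classes of summed exon length. Black points are genes outside the mitochondrial and ribosome lists, with grey bars for the range with each liver left out, and red diamonds are subunits of complexes I to V. Both sets decline with length, and the subunits lie above the other genes in every class, with medians of 0.39 down to 0.24.

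Cytosolic ribosomal proteins were higher for 69 of 79 genes but by little, with a median of 0.09. There were 4 higher and 0 lower at an unadjusted p under 0.05 (5.06% of the list against 10.5% of all genes). The median was 0.04 without f/f replicate 3. Their median exon length was 1770 bases. Aminoacyl-tRNA synthetases, which charge tRNAs, were lower for 14 of 20 genes with a median of -0.15 (0.00 without f/f replicate 1) and 0 in either direction at that threshold. ER chaperones had a median of 0.11 over 20 genes, which ranged from -0.12 without f/f replicate 2 to 0.50 without f/f replicate 1.

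The integrated stress response, driven by ATF4, gave both directions. Of 15 genes tested 7 were higher and 8 lower, with a median of -0.24 that was 0.07 without f/f replicate 1. Asns, asparagine synthetase, had 61.0, 11.03 and 9.62 CPM in f/f and 3.10, 4.12 and 8.601 CPM in MKO livers, lower without overlap but with f/f replicate 1 far above the rest (-2.38 ± 0.83, adjusted p = 0.419). Its difference was -0.99 without f/f replicate 1. Ddit3, the transcription factor CHOP, had 19.1, 9.46 and 8.66 CPM against 17.3, 38.6 and 31.8 CPM (1.24 ± 0.40). All 16 heat shock genes were higher with a median of 0.25, and 2 of them at an unadjusted p under 0.05 (12.5% against 10.5% of all genes). Within sample IDs starting with A the median was 0.62, and within those starting with B it was -0.29, so the direction did not hold in both. Hspa1b had 94.5, 67.2 and 345 CPM in f/f and 184, 394 and 364 CPM in MKO livers (0.89 ± 0.64), and it has a near-identical copy, Hspa1a, with which reads may have been shared.

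Enzymes of drug clearance leaned to higher values. Of 65 cytochrome P450 genes tested of 98 listed, 45 were higher and 20 lower, 14 higher and 2 lower at an unadjusted p under 0.05, with a median of 0.24 that was 0.27 within sample IDs starting with A and 0.25 within those starting with B. Cyp4a12b, a fatty acid hydroxylase of male liver, had 93.2, 84.6 and 107.3 CPM in f/f and 157, 144 and 149 CPM in MKO livers (0.66 ± 0.11, adjusted p = 0.303). Cyp2c40, of the family that oxidizes arachidonic acid, was at 13.1 to 13.4 CPM in f/f and 17.7 to 22.6 CPM in MKO livers (0.66 ± 0.12, adjusted p = 0.303). Further members of this family and its neighbours were higher without overlap: Cyp2c67 (0.55 ± 0.10), Cyp2c68 (0.41 ± 0.12), Cyp2c23 (0.51 ± 0.14), Cyp2j6 (0.54 ± 0.12) and Cyp4v3 (0.46 ± 0.10). Cyp2c and Cyp4a genes have near-identical copies, so reads may have been split among them and single values are uncertain. Cyp2e1, the most abundant P450, was at 7527 to 10500 CPM in f/f and 8051 to 10290 CPM in MKO livers, a difference of 0.07 ± 0.18.

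Conjugating enzymes also had medians above 0. UDP-glucuronosyl and sulfotransferases were higher in 21 of 26 cases, 5 higher and 0 lower at an unadjusted p under 0.05 (19.2% of the list). Their median was 0.19, and 0.12 without MKO replicate 1. Glutathione transferases were higher in 17 of 21 cases with a median of 0.25, 3 higher and 0 lower at that threshold (14.3%). Over all genes the share was 10.5%. Ugt2b1 had 169, 297 and 200 CPM in f/f and 361, 355 and 353 CPM in MKO livers (0.68 ± 0.21), with the MKO livers nearly equal. Nr1i3, the nuclear receptor CAR that senses drugs, was higher without overlap (204 to 250 CPM against 283 to 422 CPM, 0.63 ± 0.17, adjusted p = 0.334), and the list of CAR and PXR targets had 10 of 13 higher with a median of 0.25 (0.11 without MKO replicate 3 and 0.46 without f/f replicate 2). Por, the reductase that supplies all microsomal P450 enzymes with electrons, was lower without overlap (516 to 564 CPM against 231 to 427 CPM, -0.60 ± 0.23). NRF2 targets leaned to lower values with a median of -0.09 over 18 genes (-0.03 without f/f replicate 1), among them Srxn1 (-0.58 ± 0.19) and glutathione reductase Gsr (-0.21 ± 0.08) without overlap.

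Hormone-dependent and sex-biased genes were examined because growth hormone pulses set them in male liver. Male-biased genes were higher in 10 of 15 cases, with 5 higher and 2 lower at an unadjusted p under 0.05 and a median of 0.14 (0.05 without MKO replicate 2 and 0.32 without MKO replicate 1). Mup3, a major urinary protein, was higher without overlap (3718 to 3838 CPM against 4861 to 5952 CPM, 0.49 ± 0.13, adjusted p = 0.334), and Hsd3b5 overlapped (1.21 ± 0.45). Elovl3, a fatty acid elongase, was lower without overlap (-0.44 ± 0.15). Of the female-biased list only 6 of 15 genes had counts enough to be tested, 4 higher and 2 lower. Ghr, the growth hormone receptor, was at 253 to 370 CPM in f/f and 385 to 474 CPM in MKO livers (0.48 ± 0.16), and Igfals, which stabilizes IGF1 in blood, was also higher (0.40 ± 0.11). Of the 11 genes of the growth hormone axis 5 were higher and 6 lower. At an unadjusted p under 0.05 there were 2 higher and 0 lower (18.2% against 10.5% of all genes). The median of this list was -0.06 and ran from -0.15 without f/f replicate 1 to 0.09 without f/f replicate 2. The 21 major urinary proteins tested, which are near-identical copies, had a median of 0.11 that changed sign without MKO replicate 3 (-0.19). Genes of thyroid hormone handling, of interest because TSH drives the thyroid, had a median of -0.01 over 15 genes, with Klf9 and the transporter Slc16a10 (-0.26 ± 0.09) lower without overlap.

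The clock genes gave mixed values. Arntl, which encodes the activator BMAL1, had 13.6, 6.87 and 17.0 CPM in f/f and 6.87, 6.69 and 4.85 CPM in MKO livers (-1.02 ± 0.34), whereas the repressors Per2 (22.0 to 28.9 CPM against 26.8 to 63.1 CPM, 0.92 ± 0.31) and Per3 (0.91 ± 0.35) were higher with overlap. The nuclear receptor gene Rora (-0.60 ± 0.17) and the repressor gene Cry2 (-0.50 ± 0.15) were lower without overlap. Over the 15 core genes 6 were higher and 9 lower, 3 in each direction at an unadjusted p under 0.05, with a median of -0.12. Dbp, a direct output of the clock, had 19.9, 44.6 and 8.16 CPM in f/f and 48.5, 42.3 and 55.7 CPM in MKO livers (1.01 ± 0.55). The hour at which each liver was taken was not given in the sources used here.

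Amino acid enzymes differed little as a group, with 21 of 30 higher and a median of 0.12 (0.06 without f/f replicate 3). In the urea cycle 7 of 8 genes were lower (median -0.22, and -0.07 without f/f replicate 1), 0 of them at an unadjusted p under 0.05. The member past that threshold was Otc, its ornithine transcarbamylase, which was higher without overlap (209 to 272 CPM against 308 to 386 CPM, 0.53 ± 0.14, adjusted p = 0.334). The one-carbon and methionine cycle had 10 of 18 genes higher and a median of 0.03. Pericentral and periportal genes, which mark the ends of the liver lobule, had medians of 0.05 and -0.06 over 16 genes each. Axin2, a Wnt target of the central vein, was the exception among the former, at 16.8, 11.6 and 11.98 CPM in f/f and 5.78, 7.29 and 6.58 CPM in MKO livers without overlap (-1.04 ± 0.19, adjusted p = 0.303).

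The remaining higher genes belonged to no single function. Tymp, thymidine phosphorylase, had the lowest p of the higher genes (chromosome 15, 89371931 to 89377039, minus strand). It had 43.8, 51.3 and 63.9 CPM in the f/f livers and 127, 146 and 132 CPM in the MKO livers (1.35 ± 0.15, adjusted p = 0.151). Sco2, on the same strand, shares 856 of its 2037 exon bases and was itself higher (0.78 ± 0.18), so reads of the 2 genes may have been split.

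Rarres1, a retinoic acid responsive gene, was at 24.2 to 35.5 CPM in f/f and 56.0 to 69.9 CPM in MKO livers (1.13 ± 0.17, adjusted p = 0.303). Apold1, an early response gene of endothelial cells, showed the largest fold among the 30, from 0.465 to 1.05 CPM in f/f to 3.29 to 5.29 CPM in MKO livers (2.49 ± 0.39, adjusted p = 0.303). Malat1, a long noncoding RNA of the nucleus, was at 74.8 to 94.3 CPM in f/f and 131 to 142 CPM in MKO livers (0.72 ± 0.11, adjusted p = 0.303). Nr3c2, the mineralocorticoid receptor, was at 7.00 to 9.07 CPM against 12.4 to 14.5 CPM (0.80 ± 0.15).

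Keg1 (1.09 ± 0.17), Isoc2b (0.87 ± 0.13), the J-domain gene Dnajc28 (0.80 ± 0.13), AI480526 (0.74 ± 0.13) and Dexi (0.62 ± 0.10) were also among the higher genes. So was Hyi (0.84 ± 0.16), named for hydroxypyruvate isomerase but annotated as a polymorphic pseudogene. The last was mt-Ts1 (0.73 ± 0.12), a mitochondrial serine tRNA of 69 bases that lies beside mt-Co1 on the opposite strand. Of AI480526, 34.3% of the exon bases lie opposite to another gene, so its reads are uncertain if strand was not used in counting, and Isoc2b has a close copy, Isoc2a.

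The remaining lower genes included parts of the cytoskeleton and matrix. Col4a1, a basement membrane collagen, was at 40.1 to 47.6 CPM in f/f and 26.5 to 30.5 CPM in MKO livers (-0.61 ± 0.10, adjusted p = 0.303). Synpo, an actin-binding protein (8.76 to 11.1 CPM against 3.33 to 5.05 CPM, -1.32 ± 0.21), the focal adhesion protein Tns2 (-0.67 ± 0.11) and the scaffold Frmd4b (65.6 to 69.7 CPM against 33.2 to 42.7 CPM, -0.83 ± 0.11) were lower, as were Skil, a repressor of SMAD signaling (-0.80 ± 0.13), the zinc finger gene Zfp703 (-0.97 ± 0.17) and the ubiquitin ligase Lnx2 (-0.86 ± 0.15). Egr1, a zinc finger transcription factor, was at 28.8 to 36.4 CPM against 11.04 to 16.46 CPM (-1.23 ± 0.17). The list of matrix and fibrosis genes as a whole had a median of -0.06 over 21 genes that ran from -0.43 without f/f replicate 1 to 0.59 without f/f replicate 2. Lysosome and autophagy genes were lower in 21 of 28 cases with a median of -0.14. There were 4 lower and 0 higher at an unadjusted p under 0.05 (14.3% of the list against 10.5% of all genes). Among these were the cholesterol exporter Npc1 (-0.45 ± 0.14) and the autophagy kinase Ulk1 (-0.44 ± 0.17). Iron genes had a median of -0.18 over 14 genes (-0.08 without MKO replicate 1), and hepcidin, Hamp, overlapped (85.6 to 397 CPM against 124 to 231 CPM, -0.28 ± 0.54).

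Cell type markers were compared because fewer cells of a type and less RNA per cell cannot be told apart in a piece of liver. The 14 Kupffer cell markers summed to 481, 1224 and 898 CPM in f/f and 823, 1034 and 464 CPM in MKO livers, and the median of their log2 fold changes was -0.17. The groups overlapped in all 14, and the median ran from -0.47 without f/f replicate 1 to 0.22 without f/f replicate 2. The 14 markers of monocytes and recruited macrophages were lower in 12 cases with a median of -0.57. It ran from -1.08 without MKO replicate 2 to -0.32 without f/f replicate 2, and was -0.97 within sample IDs starting with A and -0.16 within those starting with B. Their sum was lower without overlap (2349 to 3668 CPM against 1665 to 2304 CPM), but most of it was Fn1, fibronectin, which hepatocytes also make (2169 to 3578 CPM against 1481 to 2226 CPM).

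Ccr2, the chemokine receptor of monocytes, was lower without overlap (2.91, 2.78 and 1.16 CPM against 0.754, 0.738 and 1.13 CPM, -1.39 ± 0.43, adjusted p = 0.368), as was Chil3 (1.73 to 11.1 CPM against 0.531 to 0.743 CPM, -3.13 ± 0.73, adjusted p = 0.334). Cd68, a macrophage gene, overlapped (7.55 to 30.5 CPM against 7.93 to 19.95 CPM). Neutrophil markers were lower in 11 of 12 cases with a median of -1.28. They summed to 118, 49.8 and 17.6 CPM in f/f and 17.9, 32.1 and 28.5 CPM in MKO livers, so f/f replicate 3 was below all MKO livers, and the median was -0.39 without f/f replicate 1 and 0.21 within sample IDs starting with B.

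Endothelial markers (86.0, 305 and 333 CPM against 270.5, 285.6 and 219.4 CPM) and stellate cell and fibroblast markers (66.7, 458 and 278 CPM against 266, 264 and 192 CPM) were lowest in f/f replicate 1, which stood apart in these lists too. Cholangiocyte markers were lower in 8 of 8 cases with a median of -0.48 (-0.76 without f/f replicate 1), and their sums overlapped at 68.5 to 132.6 CPM in f/f and 81.6 to 90.2 CPM in MKO livers. Markers of B and plasma cells summed to 114 to 160 CPM in f/f and 102.3 to 111.8 CPM in MKO livers without overlap, most of it the immunoglobulin gene Igkc. The sums of T and NK cells, dendritic cells and erythroid cells overlapped. Of the 9 pancreas and adipocyte markers 7 were too low to be tested, and the sum of that list was almost all Car3, which hepatocytes express as well (174, 1168 and 215 CPM against 1891, 1154 and 1529 CPM). The sums of hepatocyte markers overlapped at 112272 to 133746 CPM in f/f and 120990 to 124252 CPM in MKO livers. The part of these cell types in the differences above was not tested.

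**Figure D5:**
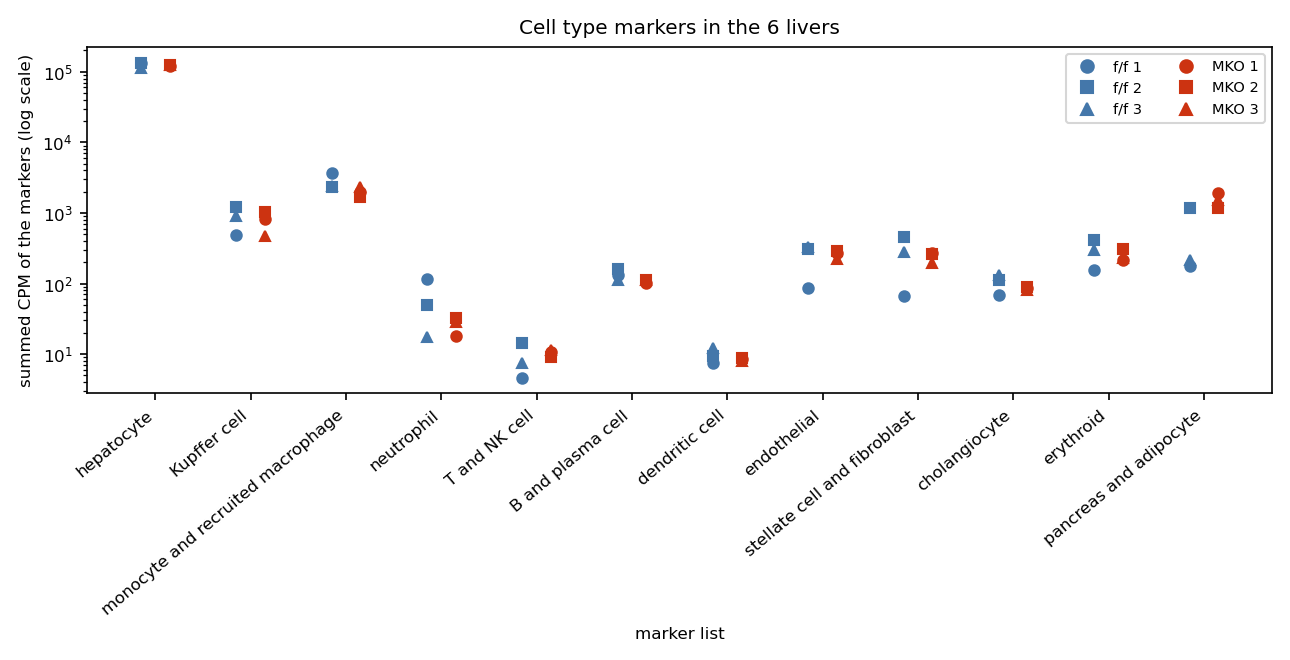
Summed CPM of each marker list on a log axis, with each point a liver (blue f/f, red MKO, symbols for the replicate numbers). Hepatocyte markers sum to at least 112272 CPM in every liver. The f/f replicate 1 is lowest for endothelial, stellate and T cell markers and highest for neutrophil markers, at 117.6 CPM.

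Of the 10 genes with the most counts, 5 did not overlap between the groups, where 17.3% of all genes tested did not. Alb, serum albumin, was at 45575 to 69735 CPM in f/f and 64166 to 64553 CPM in MKO livers (0.23 ± 0.19), and Apoe was higher without overlap (19216 to 19844 CPM against 21771 to 25450 CPM, 0.29 ± 0.13, adjusted p = 0.5). Apoa1 (-0.18 ± 0.13) and Ahsg (-0.20 ± 0.15) were lower without overlap. Trf, transferrin (-0.52 ± 0.26), and Serpina3k (-0.07 ± 0.14) overlapped, and C3, mt-Co1, mt-Cytb (0.38 ± 0.15) and Cyp2e1 made up the rest.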

How the data were processed

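RNA of 3 livers per group was sequenced and the authors deposited a table of raw read counts per gene (unit: count) for 55335 genes. The submitters' processing notes name FastQC 0.11.2, STAR, StringTie and the build mm10, with no role given for each; the counting program is not given in the sources used here. Members and gene lists were chosen with earlier results of these data known. The 15062 genes kept by filterByExpr (minimum count 10) entered a robust quasi-likelihood fit of the 6 livers in edgeR 4.0.16 (R 4.3.3), without covariates, after TMM scaling; p-values were adjusted by Benjamini-Hochberg. CPM were computed from counts and TMM factors; an SE is the log2 fold change over the square root of F. The study's methods give 3 mice per group, so p-values measure the spread between mice. Values within the first letter of the sample ID were added after the data were seen. They are differences between group means of log2 CPM with a small constant added, not fold changes of the edgeR fit. The constant draws genes with low counts toward 0. The study's own MARS test on summed counts has no term for that spread and was an alternative, as was DESeq2 1.42.0. Lists were described by counts and medians, with no set test. Named genes were, by rule, the 15 higher and 15 lower genes with the lowest p (no overlap, at least 1.5-fold, mean of at least 1 CPM in the higher group, no predicted models), the 3 lowest p of each list, Tshr, Lyz2, the 10 genes with the most counts and all cell type markers; other list members were named beside their counts, and a few genes of the rule are not reported here. Gene positions and exon lengths are of GENCODE M21 (GRCm38). The script was tested on simulated counts of 15062 genes, where edgeR recovered 47% of 100 genes changed 2-fold and 89% of 100 changed 4-fold, and DESeq2 62% and 95%. These counts were drawn for each gene on its own, so recovery in the real livers may differ. Alternatives are given in the closing section.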

Additional observations from a re-analysis of the deposited data

How the results depend on the processing

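The absence of adjusted calls depended on the test. With an adjusted p under 0.05, edgeR called 0 genes under RLE or upper-quartile scaling, a mean count of at least 50, all 12 libraries in 1 fit and the sample ID letter as a covariate, and 1 gene, Dusp1 (lower), without a filter on low counts. DESeq2 called 228 genes, 126 of them lower, and the study's MARS test on summed counts, which ignores the spread between livers, called 9389, 4268 of them lower, with 5928 higher and 4869 lower at an unadjusted p under 0.05. Genes at an unadjusted p under 0.05 and at least 2-fold apart numbered 198 higher and 218 lower without the filter, 48 and 77 with a mean count of at least 50, 163 higher with all 12 libraries, 157 and 202 with DESeq2, and 1102 and 1005 with MARS; the cause was not tested.

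With each liver left out, adjusted calls ranged from 0 to 7, of which 0 to 4 were lower. The 7 came without f/f replicate 2 (Car3, Cntnap1, Dusp1, Fgf21, Hsd3b3, Rarres1 and Tob1), and 2 genes (B430119L08Rik and Tacc2) without MKO replicate 3; Cntnap1, Hsd3b3, B430119L08Rik and Tacc2 were named after their values were seen. Genes higher at an unadjusted p under 0.05 ranged from 485 (without MKO replicate 3) to 971 (without f/f replicate 2), with 529 without f/f replicate 3. Those at least 2-fold apart ranged from 82 to 256 higher and from 108 to 196 lower, with both highest values found without f/f replicate 2. Genes without overlap ranged from 1958 to 2527 higher and from 1790 to 2543 lower, as fewer livers were compared.

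The replicate numbers did not pair the livers: deviations of same-numbered livers correlated at -0.0562, 0.2174 and -0.0209, and not every liver correlated best with its own number. With the replicate block 602 genes were higher and 625 lower at an unadjusted p under 0.05, and 0 passed adjustment. Among the genes named, those whose direction turned included Lyz2 (-0.778 with the replicate block, -0.983 to 0.766 with each liver left out), Cyp7a1 (-0.104 with the ID letter as a covariate), Atf3 (-0.851 to 0.087), Cyp2e1 (-0.062 to 0.174), Hamp (-0.672 to 0.436) and Serpina3k (-0.137 to 0.006). With each liver left out it also turned for Klf4 (-0.265 to 0.824), Nr4a3 (-0.177 to 2.096), Maff (-1.190 to 0.209) and Dusp2 (-1.410 to 0.712). Within sample IDs starting with B the medians of the urea cycle (0.01), NF-kappa B (0.285) and integrated stress response lists (0.126) were above 0, and without f/f replicate 1 those of aminoacyl-tRNA synthetases (0.001), the proteasome (0.009) and coagulation (0.022) were. Depth limits genes near 3 counts per library; for the others the spread between 3 livers does.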

Other observations

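Noncoding transcripts, which no list above holds, leaned to higher values in MKO livers. Of 312 lincRNAs tested, 203 were higher and 109 lower, with 33 higher and 5 lower at an unadjusted p under 0.05. Antisense transcripts had 168 of 256 higher, with 22 higher and 2 lower, and processed transcripts had 126 of 182 higher, with 14 and 6. At that threshold protein-coding genes had 676 higher and 746 lower of 12999. With both directions together, the shares of the noncoding classes were near the 10.5% of all genes tested. Over all genes, 5.27% were higher and 5.18% lower. The median log2 fold changes were 0.18 for antisense transcripts, 0.22 for processed transcripts and -0.02 for protein-coding genes, and those of the noncoding classes were above 0 within both sample ID letters.

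Immunoglobulin variable segments, which mark single B and plasma cell clones, were lower for 57 of 74 tested. There were 8 lower and 0 higher at an unadjusted p under 0.05, a share near the 10.5% of all genes tested. Their median was -0.49. Within sample IDs starting with A and B, as differences of mean log2 CPM, it was -0.22 and -0.13. The part of plasma cell number in this was not tested.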
